A study of Homo sapiens with 12 samples.

Results

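The genes described here encode positive transcription elongation factor b (P-TEFb), proteins of the 7SK complex that holds it inactive, and proteins of the super elongation complex that carries it to chromatin, and were read from the gene counts by symbol. They are CDK9, CCNT1, CCNT2, HEXIM1, HEXIM2, LARP7, MEPCE, ELL2, AFF1 and AFF4, 10 of 19901 genes in the count table, and all 10 passed the filter on low counts. The RNA-Seq libraries came from HCT116, a line grown from a human colorectal carcinoma, modified so that the endogenous transcription cofactor KAP1 (gene TRIM28) carries a C-terminal degron. Cells were held without serum for 48 h, received DMSO or the degrader dTAG for the last 8 h, and were then left without serum (DMSO-S0 and dTAG-S0) or given serum for 30 min (DMSO-S30 and dTAG-S30). Each of the 4 groups had 3 libraries. All groups share the tag on both alleles, the clone (clone D5) and the serum-free period, so results apply to 1 clone and no cells without the tag are compared here.

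P-TEFb is a kinase of CDK9 with a T-type cyclin that phosphorylates pausing factors and RNA polymerase II (Pol II), which frees paused Pol II to enter the gene body. In most cells a large share of it is bound in the 7SK complex, where HEXIM1 or HEXIM2 inhibits the kinase on a scaffold of 7SK RNA that MEPCE caps and LARP7 protects. Released P-TEFb can join the super elongation complex, in which AFF1 or AFF4 is the scaffold and ELL2 raises the rate of elongation; the complex is known for its use at immediate early genes.

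Libraries held between 20537682 and 26278707 counts, of which 7.97 to 9.37% were ERCC spike-in transcripts (8.72 to 9.37% in DMSO-S0 and 8.12 to 8.58% in DMSO-S30). TRIM28 RNA was 96.9 ± 4.74 CPM (normalised counts per 1000000 counts of a library, mean ± SD, n = 3) in DMSO-S0, 114.7 ± 5.71 in DMSO-S30, 92.6 ± 6.27 in dTAG-S0 and 112 ± 7.87 in dTAG-S30, which is no check of the labels because the degron acts on the protein. The first principal component (61.9% of the variance) separated libraries by serum and the second (7.37%) by dTAG, with replicate 2 of dTAG-S0 and replicate 1 of dTAG-S30 nearest to the DMSO libraries. Of 6 epithelial and colorectal markers, EPCAM, KRT8, KRT18 and CDH1 lay between 79.1 and 599 CPM, whereas CEACAM5 was at 0 and LGALS4 under 1 CPM in all 12 libraries. The 8 markers of blood, fibroblast and endothelial cells summed to 20.4 to 21.6 CPM in DMSO-S0, 85.5 to 92.2 in DMSO-S30, 18.5 to 20.7 in dTAG-S0 and 71.9 to 83.9 in dTAG-S30. Without COL1A1 these sums were 5.83 to 6.83, 6.19 to 8.90, 5.72 to 6.77 and 5.93 to 7.30 CPM, and the fibroblast markers COL1A2 and DCN were under 0.1 CPM throughout; the part of COL1A1-expressing cells in the serum results was not tested.

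Genes were compared with each other per kb of gene span, since counts were taken over whole genes with introns. The order hangs on this division, since spans ran from 3.6 kb for HEXIM1 to 206 kb for AFF1. It does not rank amounts of RNA. Undivided, CCNT1 (176 ± 11.5 CPM) and AFF4 (164 ± 1.48) were highest of the 10 in DMSO-S0, and HEXIM1 was at 52.2 ± 3.90. In DMSO-S0, HEXIM1 (14.5 ± 1.08 CPM per kb) and MEPCE (9.36 ± 0.664) had the highest levels per kb. LARP7 (7.23 ± 1.07), CDK9 (6.59 ± 0.832) and CCNT1 (6.16 ± 0.402) followed, with neighbouring libraries overlapping. CCNT2 (2.703 ± 0.0974), AFF4 (1.85 ± 0.0168), HEXIM2 (0.851 ± 0.0442), AFF1 (0.584 ± 0.0209) and ELL2 (0.450 ± 0.0257) came next, each apart from its neighbours. Per kb, ELL2 was thus last of the 10 genes in DMSO-S0 and also in dTAG-S0 (0.438 ± 0.0211 CPM per kb). With serum it stood sixth in both treatments, at 4.56 ± 0.376 CPM per kb in DMSO-S30 and 3.12 ± 0.467 in dTAG-S30. Its libraries overlapped those of CCNT2 in dTAG-S30 and lay above them in DMSO-S30. The raw counts behind these levels ran from 118 for HEXIM2 to 7914 for ELL2, and HEXIM2 had the fewest counts and the widest intervals in the fit. Its spread between libraries was not the largest in DMSO-S0 (SD 0.413 on a mean of 7.95 CPM, against 22.0 on 149 for LARP7).

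**Figure D1:**
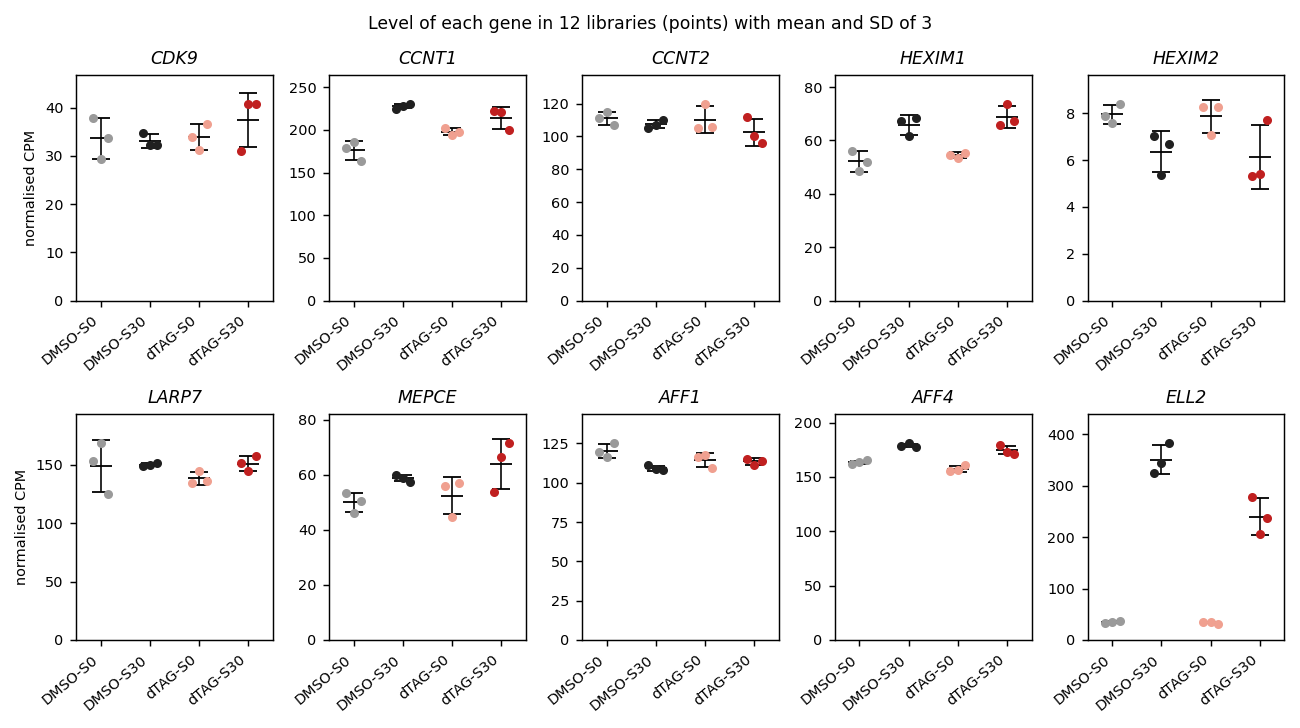
Normalised CPM (linear axis from 0) of each of the 10 genes in the 4 groups; points are libraries, bars the mean and SD of 3. ELL2 rose from 32.7 to 36.6 CPM in DMSO-S0 to 325 to 382 CPM in DMSO-S30, and the 3 dTAG-S30 libraries (205 to 277 CPM) lay below all 3 DMSO-S30 libraries.

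The first question was how 30 min of serum moved the machinery itself in cells with KAP1. In DMSO-treated cells, 4 of the 10 genes rose, ELL2, CCNT1, HEXIM1 and MEPCE, and none fell at an adjusted p under 0.05 (edgeR quasi-likelihood test, Benjamini-Hochberg over 13093 genes); over all genes tested 26.1% were called, 9.15% higher and 17.0% lower. Of the 10, 7 had an unadjusted p under 0.05, against 37.9% of all genes, and the median log2 fold change was 0.08 against −0.07 over all genes. The DMSO-S0 and DMSO-S30 libraries did not overlap for 7 of the 10 genes (5 higher, 2 lower with serum), against 44.4% of all genes (13.8% higher). With dTAG, 4 of the 10 again rose (ELL2, HEXIM1, MEPCE and AFF4) and none fell, where 24.3% of all genes were called, 9.04% higher and 15.3% lower. The median there was 0.11 against −0.06 over all genes, and 4 of the 10 genes, all higher, had no overlap between groups, against 37.5% of all genes (12.6% higher). In bulk libraries, fewer cells that express a gene and less of its RNA per cell cannot be told apart. The direction of calls over the whole table hung on the normalisation. The TMM and ERCC alternatives changed the scaling and also left out the spike-in factor (RUVg) of the main fit. Of all genes called with serum, 35.0% were higher in DMSO-treated cells here, against 59.8% with TMM scaling and 66.5% with ERCC library sizes, and 37.2% against 61.6% and 62.5% in dTAG-treated cells. The 4 rises in DMSO-treated cells were called under each of these scalings.

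CDK9 (ENSG00000136807.13, chr9:127785679-127790787, plus strand, hg38), the catalytic subunit, had no called change in any comparison of the fit to all libraries. Its levels were 37.9, 29.4 and 33.7 CPM in DMSO-S0, 34.7, 32.2 and 32.4 in DMSO-S30, 33.9, 31.3 and 36.6 in dTAG-S0 and 31.0, 40.7 and 40.7 in dTAG-S30. The 4 groups overlapped, the lowest library being in DMSO-S0 and the highest in dTAG-S30. Its log2 fold change with serum was 0.04 with DMSO (95% interval −0.15 to 0.23) and 0.10 with dTAG (−0.08 to 0.29). The second passed without the count filter (0.23, edgeR adjusted p = 0.0248) and in a fit of the 6 libraries compared (0.23, adjusted p = 0.00967).

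CCNT1 (ENSG00000129315.10, chr12:48688458-48716998, minus strand) encodes cyclin T1, the main cyclin of P-TEFb. It was at 179, 185 and 163 CPM in DMSO-S0 and at 225, 228 and 230.2 CPM in DMSO-S30, so all serum libraries lay above all libraries without serum. The rise was 1.29-fold (log2 fold change 0.37, SE 0.06, edgeR adjusted p = 4.88e-05). In dTAG-treated cells CCNT1 was at 203, 193 and 198 CPM without serum and at 222, 220.4 and 199.5 CPM with it, and replicate 3 of dTAG-S30 fell among the libraries without serum. The log2 fold change was 0.11 (SE 0.06, edgeR adjusted p = 0.181), which passed with TMM scaling (0.17, adjusted p = 0.0286), with DESeq2 (0.16, 0.0224) and without replicate 3 of dTAG-S30 (0.18, 0.0295).

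CCNT2 (ENSG00000082258.12, chr2:134918235-134959342, plus strand), which encodes the second T-type cyclin, was not called. It lay between 96.1 and 119.8 CPM over the 12 libraries, and its groups overlapped in all 4 comparisons. The log2 fold change with serum was −0.05 (95% interval −0.19 to 0.09) in DMSO-treated cells and −0.10 (−0.23 to 0.03) with dTAG; the first was 0.03 with TMM scaling and 0.02 with ERCC library sizes and with DESeq2, and the second passed in a fit of the 6 libraries compared (−0.16, edgeR adjusted p = 0.0241).

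HEXIM1 (ENSG00000186834.3, chr17:45148502-45152101, plus strand), a single-exon gene, encodes the main inhibitor of the kinase within the 7SK complex. Of the 3 genes called higher with serum in both treatments, it is the one shown by its upstream sequence. The bases before ELL2 had no entry, and those before MEPCE overlap annotated untranslated exons, whose gene and strand were not recorded. The GENCODE start of MEPCE itself lies upstream of that window. The 250 bases before its RefSeq start (GRCh38.p14, chr17:45148225-45148474, plus strand, 62.4% G or C) are written with a TATAAA match in capitals, 29 bases before the start.
HEXIM1 upstream region: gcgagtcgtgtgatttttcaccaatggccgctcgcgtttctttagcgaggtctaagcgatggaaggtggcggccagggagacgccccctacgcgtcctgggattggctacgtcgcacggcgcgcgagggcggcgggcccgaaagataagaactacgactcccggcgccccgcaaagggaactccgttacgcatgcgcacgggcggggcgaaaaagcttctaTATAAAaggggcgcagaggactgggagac
Of the 9 genes with an entry, HEXIM1 was the one with TATAAA, which 10.72% of 35116 RefSeq promoters hold in the same window on either strand. The GC box GGGCGG was found in 8 of 9 (42.64% of promoters), with 2 matches in HEXIM1, 124 and 51 bases before the start. The short form TGACG of the cAMP response element was found in 4 of 9 (21.22%), its full form TGACGTCA, which contains the short form, in LARP7 alone (1.65%), the E-box CACGTG in 2 (6.34%) and the ETS motif CCGGAAG in 2 (8.52%). The AP-1 motif TGANTCA (6.57% of promoters) and the CArG box (1.16%) were in none of the 9. All windows were taken before the RefSeq start, and those of CDK9, CCNT1 and CCNT2 lie within the counted span of the gene. The windows of CDK9, CCNT1, CCNT2, LARP7 and MEPCE overlap annotated untranslated exons and were kept in these motif counts.

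HEXIM1 was at 56.2, 48.4 and 52.0 CPM in DMSO-S0 and at 67.4, 61.7 and 68.6 in DMSO-S30. In dTAG-treated cells it was at 54.6, 53.6 and 55.5 CPM without serum and at 65.9, 73.7 and 67.3 with it. In both treatments each serum library lay above each library without serum. The rise was 1.28-fold in DMSO-treated cells (log2 fold change 0.36, SE 0.07, edgeR adjusted p = 0.000299) and 1.25-fold in dTAG-treated cells (0.32, SE 0.07, edgeR adjusted p = 0.000711). A lncRNA on the other strand, HEXIM2-AS1, covers 47.3% of the HEXIM1 span, and the strand setting of the counting is not given in the sources used here, so reads of both genes cannot be told apart.

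HEXIM2 (ENSG00000168517.10, chr17:45160700-45170040, plus strand), a paralogue with the same inhibitory role, starts 8598 bases after the end of HEXIM1. Its levels were 7.90, 7.57 and 8.39 CPM in DMSO-S0, 7.02, 5.37 and 6.66 in DMSO-S30, 8.28, 7.06 and 8.24 in dTAG-S0 and 5.30, 5.41 and 7.70 in dTAG-S30. In DMSO-treated cells the serum libraries all lay below those without serum, and in dTAG-treated cells replicate 3 of dTAG-S30 overlapped them. The log2 fold changes of −0.33 (SE 0.15, edgeR adjusted p = 0.112) and −0.36 (SE 0.15, edgeR adjusted p = 0.0785) did not pass. Without replicate 3 of dTAG-S30 the second was −0.58 and passed (adjusted p = 0.00866). On the other strand, HEXIM2-AS1 covers 8.98% of the HEXIM2 span and another lncRNA covers 13.3%. As for HEXIM1, reads of these genes cannot be told apart, which also holds for the ratio of HEXIM1 to HEXIM2 below.

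LARP7 (ENSG00000174720.15, chr4:112636964-112657592, plus strand), which binds and protects 7SK RNA, was not called. It ranged from 125 to 168 CPM in DMSO-S0, both extremes of the 12 libraries, and from 134 to 157 CPM in the other 3 groups. Its log2 fold change with serum was 0.03 with DMSO (95% interval −0.12 to 0.18) and 0.11 with dTAG (−0.04 to 0.26), where the groups did not overlap. Without replicate 3 of DMSO-S0 its difference between dTAG-S0 and DMSO-S0 went from −0.09 (adjusted p = 0.679) to −0.22 (adjusted p = 0.0438).

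MEPCE (ENSG00000146834.13, chr7:100428790-100434126, plus strand), the capping enzyme of 7SK RNA, was at 53.2, 46.2 and 50.5 CPM in DMSO-S0 and at 59.9, 58.9 and 57.5 in DMSO-S30, with no overlap. The rise was 1.21-fold (log2 fold change 0.27, SE 0.09, edgeR adjusted p = 0.0284). In dTAG-treated cells it was at 56.0, 44.6 and 56.9 CPM without serum and at 53.8, 66.4 and 71.4 with it, and replicate 1 of dTAG-S30 lay among the libraries without serum. The 1.19-fold rise (log2 fold change 0.26, SE 0.09, edgeR adjusted p = 0.035) was lost without replicate 2 of dTAG-S0 (0.14, adjusted p = 0.233) or replicate 2 of dTAG-S30 (0.23, adjusted p = 0.112). Another annotated protein-coding gene on the same strand covers 99.6% of the MEPCE span and has no row in the count table. Reads of both cannot be told apart, which holds for the rises given here.

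ELL2 (ENSG00000118985.15, chr5:95885098-95962071, minus strand), an elongation factor of the super elongation complex, changed most of the 10. It was at 32.7, 34.4 and 36.6 CPM in DMSO-S0 and at 325, 344 and 382 in DMSO-S30. In dTAG-treated cells it was at 34.8, 34.4 and 31.8 CPM without serum and at 277, 205 and 238 with it. Each serum library was at least 6.09-fold over the mean of its own treatment without serum. The rise was 9.94-fold in DMSO-treated cells (log2 fold change 3.31, SE 0.09, edgeR adjusted p = 6.67e-21), rank 38 of 13093 genes, and 7.22-fold in dTAG-treated cells (2.85, SE 0.09, adjusted p = 9.59e-20), rank 42. ELL, its paralogue in the same complex, was singled out after its values were seen: it had 0.462 ± 0.0316 CPM per kb in DMSO-S0, where ELL2 had 0.450, and 0.531 ± 0.0399 in DMSO-S30, where ELL2 had 4.56. The log2 fold change of ELL with serum was 0.22 (SE 0.08, edgeR adjusted p = 0.0524).

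AFF4 (ENSG00000072364.12, chr5:132875379-132963634, minus strand), a scaffold of the super elongation complex, was at 162, 163 and 165 CPM in DMSO-S0 and at 178, 181 and 178 in DMSO-S30. In dTAG-treated cells it was at 156, 156 and 161 CPM without serum and at 179, 173 and 171 with it. The groups did not overlap in either treatment. The log2 fold change was 0.12 in DMSO-treated cells (SE 0.05, edgeR adjusted p = 0.0866) and 0.15 in dTAG-treated cells (SE 0.05, edgeR adjusted p = 0.0348). The first passed with TMM scaling (0.20, adjusted p = 0.00319), with DESeq2 (0.19, 0.000288) and without replicate 3 of dTAG-S30 (0.13, 0.0461), and the second did not pass with ERCC library sizes (0.19, adjusted p = 0.109) or when any of 5 libraries was left out (replicate 3 of DMSO-S30, replicates 1 and 2 of dTAG-S0, replicates 1 and 2 of dTAG-S30; adjusted p from 0.0527 to 0.106).

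AFF1 (ENSG00000172493.20, chr4:86935002-87141054, plus strand), the other scaffold, was at 119, 117 and 125 CPM in DMSO-S0 and at 111, 108 and 108 in DMSO-S30. The serum libraries lay below the others, with a log2 fold change of −0.15 (SE 0.06, edgeR adjusted p = 0.0508), and it passed in 7 of 12 fits with 1 library left out (replicates 1 and 2 of DMSO-S0, replicate 1 of DMSO-S30, all 3 of dTAG-S0 and replicate 3 of dTAG-S30; adjusted p from 0.0144 to 0.0468) and with the likelihood ratio test (0.0468). AFF1 did not pass in any other fit run. Its log2 fold change was −0.066 with TMM scaling, and its adjusted p reached 0.629 with ERCC library sizes. In dTAG-treated cells it was at 117, 118 and 109.6 CPM without serum and at 115, 111 and 114 with it. These overlapped, and the log2 fold change was −0.01 (95% interval −0.12 to 0.11).

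**Figure D2:**
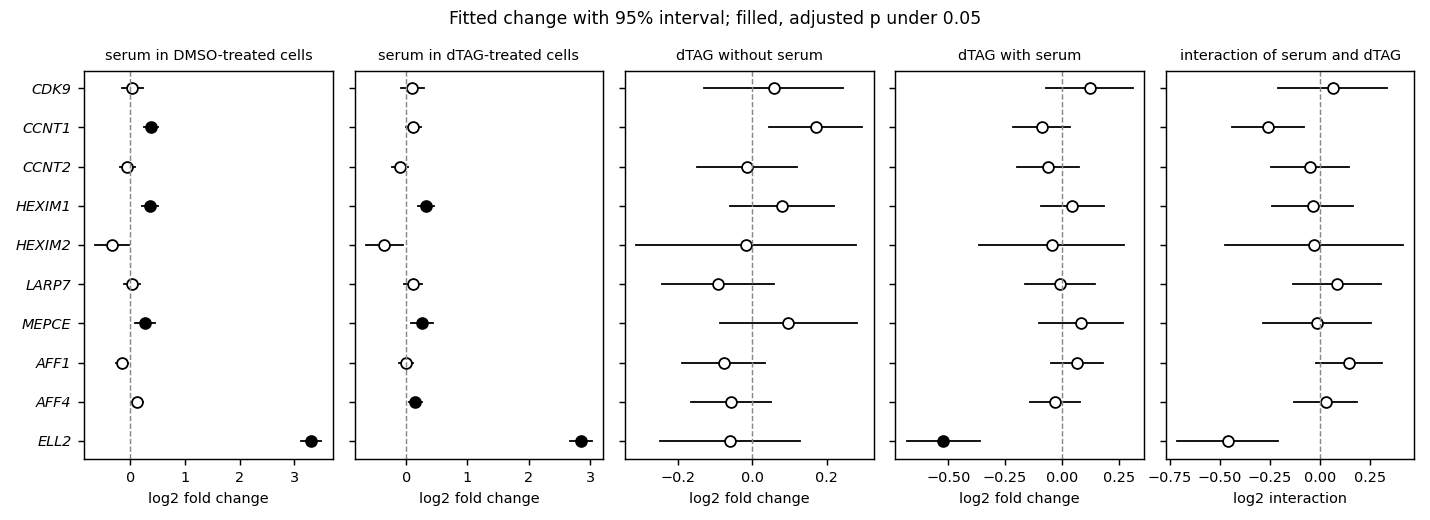
Fitted log2 fold change of the 10 genes with its 95% interval in the 4 comparisons and the interaction (each panel with its own log2 axis); filled points passed an edgeR adjusted p of 0.05. ELL2 stands apart with serum at 3.31 and 2.85, and is the gene with a filled point, −0.52, in the comparison of dTAG with serum.

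The second question was what acute depletion of KAP1 did to these genes. Without serum, none of the 10 was called by edgeR or by DESeq2, where edgeR called 1.28% of all genes, 0.848% higher and 0.435% lower. Of the 10, 1 (CCNT1) had an unadjusted p under 0.05, against 11.5% of all genes. CCNT1 was higher in all dTAG-S0 libraries (193 to 203 CPM) than in all DMSO-S0 libraries (163 to 185 CPM), with a log2 fold change of 0.17 (95% interval 0.05 to 0.30, edgeR adjusted p = 0.213). ELL2 differed by −0.06 (95% interval −0.25 to 0.13). Of the 10, 2 had no overlap between dTAG-S0 and DMSO-S0 (CCNT1 above, AFF4 below), against 17.7% of all genes (8.50% higher). The other 9 besides ELL2 had log2 fold changes from −0.09 to 0.17, and their intervals reached from −0.31 to 0.30.

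With serum, 1 of the 10 was called, ELL2, which fell, where 1.21% of all genes were called, 0.588% higher and 0.626% lower. The dTAG-S30 libraries stood at 79.0, 58.5 and 67.8% of the mean of DMSO-S30, so all 3 lay below the lowest DMSO-S30 library, which was at 92.8%. The fitted difference was −0.52 on the log2 scale (SE 0.08, edgeR adjusted p = 0.000226), a change of −30.3%, and ELL2 was rank 194 of 13093 genes by size of fall. It passed in all fits with 1 library left out (log2 fold change −0.66 to −0.43, adjusted p at most 0.00604) and in all other alternatives (−0.55 to −0.52, adjusted p at most 0.0147). The other 9 genes had log2 fold changes from −0.09 to 0.12, with intervals from −0.37 to 0.31 and adjusted p from 0.666 to 0.98. Of the 10, 3 had no overlap between dTAG-S30 and DMSO-S30 (ELL2 and CCNT1 below, AFF1 above), against 15.7% of all genes (7.62% higher). The comparisons share libraries, since DMSO-S30 enters both the serum response of DMSO-treated cells and the effect of dTAG with serum.

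Whether the serum response itself differed with dTAG was tested by the interaction. None of the 10 passed, where 0.0382% of all genes were called. An unadjusted p under 0.05 was found for 2 of the 10 and for 3.09% of all genes. For ELL2 the serum response was lower with dTAG by a log2 interaction of −0.46 (95% interval −0.71 to −0.21, unadjusted p = 0.000868, edgeR adjusted p = 0.437). It was called with DESeq2 (−0.52, adjusted p = 0.0282), without the count filter (−0.55, adjusted p = 4.95e-06) and without replicate 1 of DMSO-S30 (−0.51, 0.0105), replicate 1 of dTAG-S30 (−0.62, 0.0111) or replicate 3 of dTAG-S30 (−0.53, 0.00918). For CCNT1 the interaction was −0.26 (95% interval −0.44 to −0.08, unadjusted p = 0.00651, edgeR adjusted p = 0.9998), and no alternative called it. The other 8 had interactions between −0.05 and 0.14, with unadjusted p of 0.0863 or more.

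Pairs of genes with related roles were compared by the log2 ratio of their counts within each library, which does not use any scaling, with an exact two-sided permutation test of serum or dTAG within the levels of the other factor (400 assignments, smallest possible p = 0.005, 8 tests adjusted together). Counts were not divided by gene span here, so the ratios show change between groups and not the relative amounts of a pair. In counts, HEXIM1 was 6.19 to 7.09 times HEXIM2 in DMSO-S0 and 9.57 to 11.4 times in DMSO-S30, and 6.59 to 7.57 and 8.71 to 13.6 times in dTAG-S0 and dTAG-S30. All serum libraries lay above all others within each treatment, with a mean difference in log2 ratio of 0.69 (exact permutation p = 0.005, adjusted p = 0.0133).

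CCNT1 was 1.52 to 1.61 times CCNT2 in DMSO-S0, 2.09 to 2.13 times in DMSO-S30, 1.62 to 1.93 times in dTAG-S0 and 1.98 to 2.20 times in dTAG-S30. The serum libraries again lay above the others within each treatment (difference in log2 ratio 0.32, exact permutation p = 0.005, adjusted p = 0.0133), by 0.42 with DMSO and 0.21 with dTAG. AFF4 was 1.32 to 1.40 times AFF1 in DMSO-S0, 1.602 to 1.67 times in DMSO-S30, 1.33 to 1.47 times in dTAG-S0 and 1.503 to 1.56 times in dTAG-S30 (difference in log2 ratio 0.21, exact permutation p = 0.005, adjusted p = 0.0133). So for each of these pairs the serum libraries lay above the others within both treatments. With dTAG the gap was narrow for CCNT1 to CCNT2 (1.93 without serum, 1.98 with it) and AFF4 to AFF1 (1.47 and 1.503). These ratios partly restate rises already called, of HEXIM1 in both treatments, CCNT1 with DMSO and AFF4 with dTAG. How often other gene pairs separate this way was not tested. Among single genes, serum separated the libraries for 44.4% with DMSO and 37.5% with dTAG.

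HEXIM1 was 1.48 to 1.65 times CDK9 in DMSO-S0 and 1.91 to 2.12 times in DMSO-S30. In dTAG-treated cells the ratio was 1.52 to 1.71 without serum and 1.65 to 2.13 with it, and these overlapped. The difference in log2 ratio with serum was 0.28 (exact permutation p = 0.01, adjusted p = 0.02). None of the 4 ratios differed with dTAG past the threshold: the differences in log2 ratio were 0.11 for HEXIM1 to HEXIM2, 0.08 for CCNT1 to CCNT2, −0.04 for AFF4 to AFF1 and −0.03 for HEXIM1 to CDK9 (exact permutation, adjusted p from 0.36 to 0.705). These are means over cells without and with serum, which did not always go the same way. The CCNT1 to CCNT2 ratio differed with dTAG by 0.19 without serum, where the libraries did not overlap, and by −0.02 with serum. The AFF4 to AFF1 ratio differed by 0.02 without serum and by −0.09 with serum, where they did not overlap, and the HEXIM1 to CDK9 ratio by 0.05 and −0.10.

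**Figure D3:**
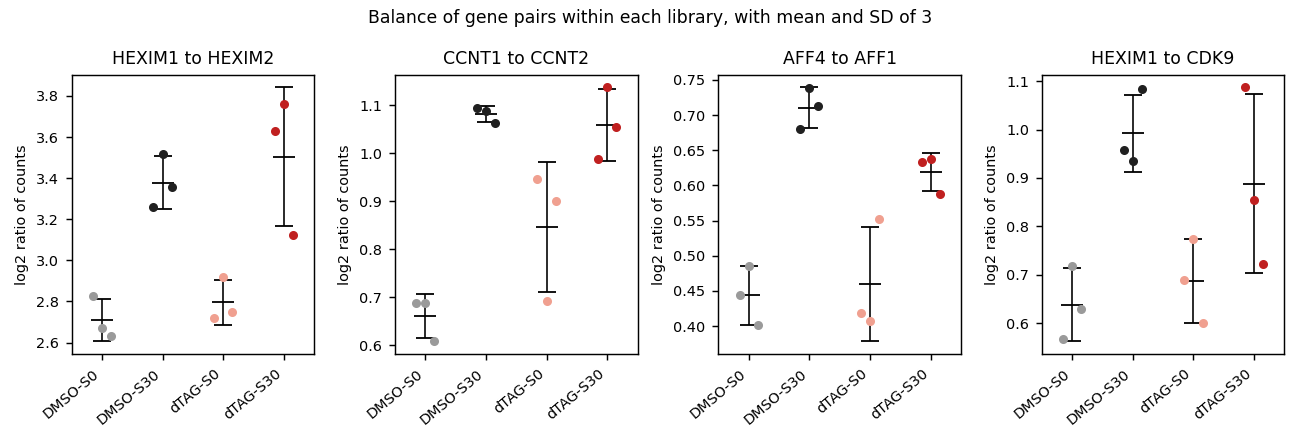
Log2 ratio of the counts of 4 gene pairs in each library (points) with the mean and SD of 3, in each of the 4 groups; each panel has its own axis, which does not start at 0. The serum libraries lie above the others within both treatments for HEXIM1 to HEXIM2, CCNT1 to CCNT2 and AFF4 to AFF1, and within DMSO-treated cells for HEXIM1 to CDK9.

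Other genes of transcription elongation, 42 taken from 5 lists, of which 40 passed the count filter, moved in both directions. With serum in DMSO-treated cells 6 rose and 2 fell, 8 of 40 where 26.1% of all genes were called. The 6 with the largest changes were PAF1, a subunit of the PAF1 complex that travels with Pol II (log2 fold change 0.63, edgeR adjusted p = 1.90e-06), CCNH (0.62, 3.13e-07) and CDK7 (0.28, 0.00169), the cyclin and kinase of TFIIH, the pausing factor subunits NELFA (−0.25, 0.00663) and NELFE (0.22, 0.0264), and TCEA1, which rescues arrested Pol II (−0.18, 0.0419). NELFA, NELFE and TCEA1 did not pass with ERCC library sizes, nor TCEA1 with TMM scaling, DESeq2 or no count filter. Without replicate 2 of DMSO-S0 or replicate 3 of DMSO-S30 neither NELFE (0.18 and 0.17) nor TCEA1 (−0.13 and −0.16) passed, and without replicate 1 of DMSO-S30 TCEA1 did not (−0.17). By list, 0 of 5 partners of the super elongation complex, 2 of 6 pausing factors, 3 of 12 PAF1 complex and travelling factors, 2 of 6 other kinases of the Pol II tail with their cyclins and 1 of 11 recruitment and release factors were called. The median log2 fold change of the 40 was 0.00, against 0.08 for the 10 genes and −0.07 over all genes.

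With serum in dTAG-treated cells 5 rose and 4 fell, 9 of 40 where 24.3% of all genes were called. The largest changes were those of PAF1 (0.40, edgeR adjusted p = 0.000566), CCNH (0.35, 0.000832), the histone chaperone SUPT6H (0.24, 0.00477), TCEA1 (−0.22, 0.0122), the pausing and elongation factor SUPT5H (0.21, 0.0197) and CCNK, the cyclin of CDK12 and CDK13 (0.21, 0.0289). Without replicate 2 of dTAG-S0, TCEA1 (−0.19), SUPT5H (0.16) and CCNK (0.16) did not pass, nor did SUPT5H (0.19) and CCNK (0.17) without replicate 2 of dTAG-S30 or TCEA1 (−0.17) without replicate 3 of dTAG-S30. TCEA1 and CCNK did not pass with ERCC library sizes, nor TCEA1 with TMM scaling.

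With dTAG and no serum, where 1.28% of all genes were called, 1 of the 40 was called, CDK12, a kinase of the Pol II tail, which fell (log2 fold change −0.26, edgeR adjusted p = 0.0136). Its mean was 153 ± 5.62 CPM in DMSO-S0 and 128 ± 2.82 in dTAG-S0. With dTAG and serum, where 1.21% of all genes were called, 2 fell, CCNH (−0.31, edgeR adjusted p = 0.0255), from 238 ± 18.6 to 191 ± 18.5 CPM, and CDK12 (−0.23, edgeR adjusted p = 0.0401), from 148 ± 6.62 to 127 ± 3.56 CPM. None of these 3 calls held with ERCC library sizes (adjusted p from 0.233 to 0.404), and the fall of CDK12 without serum held in every fit with 1 library left out. With serum, CCNH did not pass without replicate 2 (−0.22) or 3 (−0.32) of DMSO-S30 or replicate 2 of dTAG-S30 (−0.28), nor CDK12 without replicate 1 (−0.21) or 3 (−0.21) of DMSO-S30 or replicate 1 (−0.21) or 2 (−0.23) of dTAG-S30, or in a fit of the 6 libraries compared (−0.22, adjusted p = 0.0835). None of the 40 passed in the interaction with edgeR, and 2 had an unadjusted p under 0.05, against 3.09% of all genes.

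**Figure D4:**
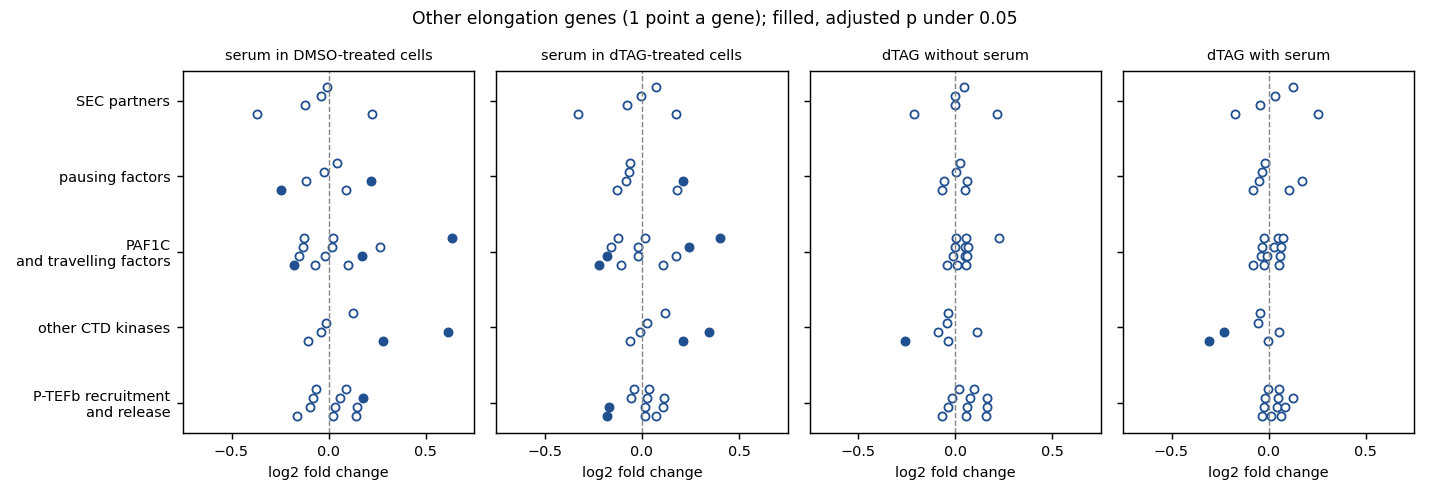
Log2 fold change of 40 other elongation genes (1 point a gene, 5 lists on the vertical axis) in the 4 comparisons; filled points passed an edgeR adjusted p of 0.05. All lie between −0.37 and 0.63, with 8 and 9 filled points for serum in DMSO- and dTAG-treated cells, 1 for dTAG without serum and 2 for dTAG with serum.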

How the data were processed

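Per the labels and the study's methods, total RNA was depleted of rRNA with ERCC spike-ins, and the authors trimmed reads (Trim Galore 0.6.4, FastQC 0.11.8), aligned them to hg38 and deposited raw counts per whole gene, introns included (featureCounts, Subread 1.6.3). Strand setting was not given in the sources used here. Counting introns makes a level a mixture of nascent and mature RNA. Gene symbols matched 19802 of 19901 identifiers. The 13093 genes that reached 10 counts in 6 or more libraries were fitted by edgeR 4.0.16 (R 4.3.3), quasi-likelihood test, upper-quartile scaling and 1 RUVg factor from 69 ERCC transcripts, over all 12 libraries, with Benjamini-Hochberg adjustment and a threshold of 0.05. CPM are upper-quartile scaled without the factor. SE is the size of the log2 fold change over the square root of F. Ratios of counts had 0.5 added. The methods call replicates biological, and the numbers did not pair them (same-number r over 0.1 in 1 of 18 pairs). Alternatives were TMM, ERCC library sizes and DESeq2 1.42.0, which all left out the RUVg factor. Others were a likelihood ratio test, no count filter, a replicate block, only the 6 libraries compared and each library left out. The self-test on simulated data recovered its changes. These were larger than the rises of CCNT1, HEXIM1 and MEPCE, so recovery at that size was not tested. Promoters came from RefSeq (GRCh38.p14), overlaps from GENCODE. All 10 genes and those called among 42 listed elongation genes (6 with the largest change in each comparison) are named. Members and lists were chosen with earlier results of these data known.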

Additional observations from a re-analysis of the deposited data

Results flagged for a closer look

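For 2 of the 10 genes the serum response differed between dTAG- and DMSO-treated cells at an unadjusted p under 0.05, which 3.09% of all genes had, and neither passed adjustment over 13093 genes with edgeR. The log2 interaction of ELL2 was −0.46, from a serum response of 3.31 with DMSO and 2.85 with dTAG. The log2 interaction of CCNT1 was −0.26, from 0.37 with DMSO and 0.11 with dTAG. Over all alternatives that left out 1 library, that of ELL2 ran from −0.62 to −0.38.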

How the results depend on the processing

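Of 445 values of single genes under settings other than leaving out a library, 399 kept direction and side of the threshold, and 702 of 780 did with 1 library left out. Among the 10 genes, the 4 rises with serum in DMSO-treated cells, those of ELL2 and HEXIM1 with dTAG and the fall of ELL2 in dTAG-S30 held under every alternative run. Values that changed sign were all small and uncalled (size at most 0.06, or 0.13 with 1 library left out). In log2 fold change they were, with serum in DMSO-treated cells, CCNT2 0.026 (TMM), 0.02 (ERCC library sizes) and 0.019 (DESeq2). With serum in dTAG-treated cells they were AFF1 0.049 (TMM), 0.024 (ERCC) and 0.0397 (DESeq2). For dTAG without serum they were CDK9 −0.033 and ELL2 0.0113 (no count filter), CCNT2 0.023 and HEXIM2 0.0112 (ERCC), and CCNT2 1e-04 (only 6 libraries). For dTAG with serum they were LARP7 0.0069 (TMM), 0.0143 (ERCC), 0.0051 (DESeq2), 0.0014 (no count filter) and 0.0072 (only 6 libraries). In the interaction they were HEXIM1 0.01 (no count filter), MEPCE 0.037 (TMM), 0.0194 (ERCC), 0.036 (DESeq2) and 0.0601 (no count filter), and AFF4 −0.006 (ERCC).

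With 1 library left out, the ranges of results that changed sign were −0.046 to 0.013 for AFF1 (serum with dTAG), −0.0199 to 0.16 for CDK9 and −0.11 to 0.14 for LARP7 (serum with DMSO). For dTAG without serum they were −0.0785 to 0.032 for CCNT2, −0.081 to 0.12 for CDK9, −0.0665 to 0.064 for HEXIM2 and −0.0035 to 0.21 for MEPCE. For dTAG with serum they were −0.024 to 0.082 for HEXIM1, −0.24 to 0.078 for HEXIM2 and −0.025 to 0.02 for LARP7. For the interaction they were −0.15 to 0.032 for CCNT2, −0.011 to 0.21 for CDK9, −0.11 to 0.04 for HEXIM1, −0.23 to 0.11 for HEXIM2, −0.0036 to 0.23 for LARP7 and −0.15 to 0.13 for MEPCE. The difference in log2 ratio with dTAG ran from 0.042 to 0.20 for HEXIM1 to HEXIM2 (0.20, exact permutation p = 0.045, without replicate 3 of dTAG-S30), −0.061 to −0.0245 for AFF4 to AFF1 (−0.061, exact permutation p = 0.025, without replicate 3 of dTAG-S0) and −0.077 to 0.014 for HEXIM1 to CDK9.

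Counts of the 10 genes called ran, with 1 library left out, from 4 to 6 (serum with DMSO), 2 to 6 (serum with dTAG), 0 to 1 (dTAG without serum, 1 being LARP7 without replicate 3 of DMSO-S0) and 0 to 1 (interaction). Over all genes, the share called in these fits ran from 20.1 to 32.0%, 18.6 to 31.5%, 0.851 to 2.29% and 0.0383 to 0.107%. For dTAG with serum it ran from 0.728 to 1.97%. DESeq2 and no count filter each called 1 in the interaction, ELL2, where they called 0.168 and 0.164% of all genes. Counts of the other elongation genes ran from 4 to 17, 3 to 13, 1 to 2 and 0 to 2 in the 4 comparisons. With ERCC library sizes these counts were 5, 4, 0 and 0, where 13.5, 12.6, 0.580 and 0.504% of all genes were called. In fits of only the 6 libraries compared they were 15 (serum with dTAG, 34.4% of all genes) and 1 (dTAG with serum, 1.14% of all genes, where CDK12 was lost). The causes of these shifts were not tested. Replicate numbers were shared by the groups but did not pair the libraries (same-number correlations of deviations −0.15 to 0.14, different-number −0.20 to 0.26). With the replicate block the calls among the 10 genes were 4, 4, 0, 1 and 0, the interaction being the last, and ratio differences with serum had an exact sign-flip permutation p of 0.0312, the smallest that 64 flips allow. HEXIM2, at 118 to 198 counts a library, had the widest intervals, and its log2 fold changes with serum of −0.33 and −0.36 did not pass at this depth where 0.27 did for MEPCE.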
